A study of Mus musculus with 3 samples.

Results

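Imprinted genes are transcribed mainly from the allele inherited from 1 parent. Among 10 of them measured in mouse choroid plexus epithelium (CPE), Cdkn1c and Plagl1 were higher in CPE than in a reference RNA of retinal pigment epithelium and choroid (RPE/choroid), by 4.99-fold and 2.73-fold. Ndn was 2.01-fold lower, and Mest, at 1.96-fold higher, lay just under the fold that was asked for. Peg3 was high in 1 mouse of 3. H19 and Zim1 were close to background in both tissues.

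The 10 genes were H19, Dlk1, Peg3, Cdkn1c, Ndn, Snrpn, Plagl1, Mest, Grb10 and Zim1. Every probe of the array that carries 1 of these names was used, which gave 18 of the 41174 probes and 10 of the 27841 gene and transcript names on the array. By textbook assignment 6 are expressed from the paternal allele (Dlk1, Peg3, Ndn, Snrpn, Plagl1 and Mest) and 3 from the maternal allele (H19, Cdkn1c and Zim1). For Grb10 the active allele depends on the tissue: maternal in most of the body and paternal in neurons. The 10 genes lie in known imprinted clusters, and 6 of them are on chromosome 7.

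Imprinting is set in the germ line by DNA methylation of control regions that differ between egg and sperm, and it is kept in somatic cells through each round of DNA replication. ZFP57, a zinc finger protein, holds methylation on the marked allele by binding a methylated hexamer in those regions. Many imprinted genes act on growth: maternally expressed genes such as Cdkn1c, H19 and Grb10 tend to restrain it, and paternally expressed genes such as Igf2, Mest, Peg3 and Dlk1 tend to promote it. The choroid plexus is known for Igf2, which stays active there after birth and is secreted into the cerebrospinal fluid. The probes read total RNA of a gene, so the parental origin of the transcripts was not measured.

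The samples were CPE cells cut by laser dissection from brain cryosections of 3 healthy adult female C57BL/6 mice, untreated, 1 mouse per array. The RNA was amplified and labelled with Cy5, and each array also carried the same RPE/choroid RNA of C57BL/6 mice, labelled with Cy3, as a common reference. Dyes were not swapped, so a dye effect of a probe cannot be told apart from a difference between the tissues. The errors cover 3 mice and 3 hybridisations of 1 reference RNA and leave out the spread among reference animals.

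Levels below are log2 intensities per channel after correction, and a log2 ratio is the CPE level minus the reference level on the same array. The test took in the probes that cleared background clearly on every array for CPE, for the reference or for both. It was past the threshold when limma's adjusted p was under 0.05 and the difference was at least 2-fold. Genes were counted by their brightest tested probe. The CPE channel had 58.5%, 46.0% and 85.6% of probes above background in mice 1, 2 and 3, so the 3 arrays were not equally sensitive to dim probes.

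Marker genes matched the labelled tissues. Of 8 tested CPE markers 7 were higher in CPE, with a median log2 ratio of 3.41 over the 8, and Otx2, shared with RPE, was at 0.14. RPE and melanocyte markers were lower in CPE for 8 of 9 and photoreceptor markers for 6 of 6, with medians of −5.26 and −4.88. Stroma markers were lower for 5 of 6, macrophage markers for 5 of 6, neuron markers for 3 of 6, red blood cell markers for 3 of 3 and smooth muscle and pericyte markers for 2 of 6, while no endothelium marker of 6 was past the threshold. The stroma marker that was not lower, Pdgfra, was at 0.65. Col1a1 counted as lower by its brightest probe (−1.19), while a second probe of it was past the threshold as higher (1.12, adjusted p = 0.0166). Summed over its 6 genes, the stroma list stood at 14.2 to 14.4 in CPE and 16.8 to 17.0 in the reference on the log2 scale. The part of these other cell types in the ratios of the imprinted genes was not tested. In bulk RNA, fewer cells of a type and less RNA per cell cannot be told apart.

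Of the 10 genes, 9 had a tested probe. Among them 2 were higher in CPE (Cdkn1c and Plagl1), 1 was lower (Ndn) and 6 were not past the threshold. Over all 17842 genes tested, 19.1% were past it, 8.03% higher and 11.1% lower, which is the background for the count of 3 of 9. The median log2 ratio of the 9 genes was 0.29, against −0.041 over all genes tested. Counted by probe, those of Cdkn1c, Plagl1 and Ndn and an upstream probe of Grb10 made 4 calls among 14, of which 2 were higher and 2 lower. Over all tested probes 17.3% were called, with 7.09% higher and 10.2% lower. For 7 of the 9 genes the ratio had the same sign in all 3 mice, the exceptions being Peg3 and Dlk1. No share over all genes tested is given beside this count. The 7 include H19, whose brightest probe was above background in CPE on 1 array. Of all probes past the threshold 41.1% were higher in CPE, and with median centring in place of loess 67% were. Under median centring Cdkn1c, Plagl1, Mest and Snrpn were past the threshold and Ndn was not. Leaving out mouse 2 ended the call of Ndn, and leaving out mouse 3 added Mest.

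**Figure D1:**
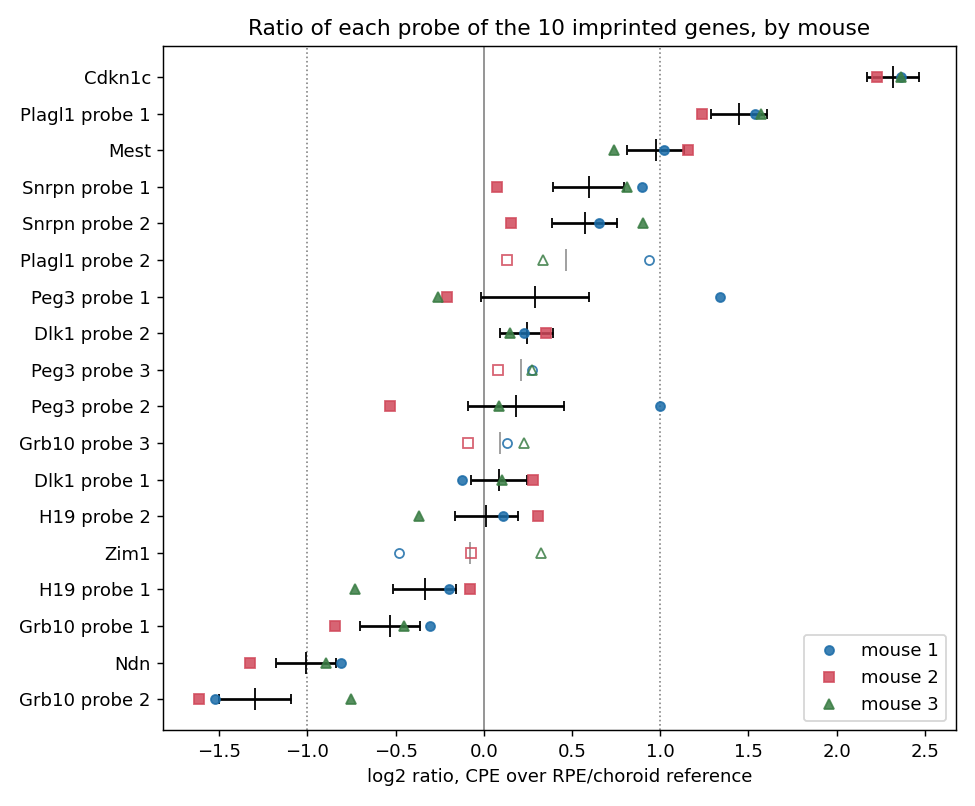
Log2 ratio of CPE over the RPE/choroid reference (x axis) for each of the 18 probes of the 10 imprinted genes (y axis, ordered by mean, with the probes of a gene numbered from the brightest). Points are the 3 mice, filled for tested probes and open for probes that were not tested; black bars are the mean ± SE from limma, grey ticks the mean of untested probes, and dotted lines mark a 2-fold difference in either direction. The 3 points of Cdkn1c lie together at 2.23 to 2.37, while those of the brightest Peg3 probe run from −0.26 to 1.34.

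Cdkn1c encodes p57, an inhibitor of cyclin-dependent kinases that takes cells out of the cycle, and is the gene of this set that is mutated in Beckwith-Wiedemann syndrome. Its level in CPE was 13.12, 13.20 and 13.41 in mice 1 to 3, and its level in the reference was 10.75, 10.97 and 11.05. All CPE values lay above all reference values, with more than 2 log2 units between them on each array. The log2 ratio was 2.32 (SE 0.15, 95% confidence interval 1.97 to 2.67, n = 3 mice), a 4.99-fold difference, with limma's adjusted p = 3.91e-05. The ratios of the mice differed little: their SD was 0.079, and only 6.65% of tested probes had a smaller one. The gene had 1 probe, A_51_P339540, at chr7:143268238-143268297 of mouse build mm8 on the minus strand. It remained past the threshold in every alternative that was run, also when tested against a 2-fold change in place of no change.

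The other cell cycle inhibitors of its family gave other values. By its brightest probe Cdkn1b, which encodes p27, had log2 ratios of −0.84, −1.14 and −0.90 (mean −0.96, SE 0.16, adjusted p = 0.00259). That 1.94-fold lower level did not reach the fold threshold. A second tested Cdkn1b probe gave 0.015 (adjusted p = 0.959), with 0.095, −0.39 and 0.34 in the 3 mice, and an untested one −0.055. Cdkn1a, which encodes p21, had 0.75, 0.82 and −0.51 (mean 0.35, SE 0.27, adjusted p = 0.335). The difference between Cdkn1c and these relatives was not itself tested.

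Plagl1, also called Zac1, encodes a zinc finger transcription factor that regulates other imprinted genes. Probe A_52_P532456, at chr10:12821672-12821731 (mm8, plus strand), stood at 12.81, 12.32 and 12.43 in CPE and at 11.28, 11.08 and 10.86 in the reference. The CPE values again lay above every reference value. Its log2 ratio was 1.45 (SE 0.16, 95% confidence interval 1.08 to 1.81), with ratios of 1.54, 1.24 and 1.57 in the 3 mice and limma's adjusted p = 0.000414. A second probe, 1810 bases upstream, was above background in CPE and in the reference on 2 arrays each and was not tested. Its ratios were 0.94, 0.13 and 0.34. Plagl2, the close relative of Plagl1, went the other way: its log2 ratio was −1.04 (SE 0.17, adjusted p = 0.00256), past the threshold as lower, but not with mouse 2 left out (−0.89).

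Mest encodes a hydrolase-like protein and is strongly active in the embryo; mice that lack the paternal copy are growth retarded. Its level in CPE was 12.56, 12.88 and 12.47, and in the reference 11.54, 11.72 and 11.73. The groups did not overlap. With ratios of 1.02, 1.16 and 0.74, the mean log2 ratio was 0.97 (SE 0.16, 95% confidence interval 0.60 to 1.35, adjusted p = 0.00281), so the difference passed on its p and missed on its size. The probe, A_51_P124535, lies at chr6:30698289-30698348 (mm8, plus strand). Copg2, whose gene lies tail to tail with Mest on the opposite strand and has its brightest probe 175 bases away, had a log2 ratio of 0.65 (SE 0.15, adjusted p = 0.0113) and was not past the threshold; its other tested probes gave 0.63 and −0.20.

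The start regions of Plagl1 and Mest are shown because these genes had the highest ratios among those with a RefSeq start region in the table used, and that of Ndn because Ndn was lower in CPE. Each line is the 250 bases before a transcript start, 5′ to 3′ on the strand of the gene, from RefSeq on GRCm38.p6 (not the build of the probes). Capitals mark the ZFP57 hexamer TGCCGC, searched on both strands, where its other strand reads GCGGCA.
Plagl1, chr10:13090582-13090831, plus strand: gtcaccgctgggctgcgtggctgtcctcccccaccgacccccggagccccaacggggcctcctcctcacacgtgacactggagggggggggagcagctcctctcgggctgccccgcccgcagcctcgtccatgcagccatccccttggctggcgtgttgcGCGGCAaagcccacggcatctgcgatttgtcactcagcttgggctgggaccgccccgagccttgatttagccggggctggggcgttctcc
Mest, chr6:30737800-30738049, plus strand: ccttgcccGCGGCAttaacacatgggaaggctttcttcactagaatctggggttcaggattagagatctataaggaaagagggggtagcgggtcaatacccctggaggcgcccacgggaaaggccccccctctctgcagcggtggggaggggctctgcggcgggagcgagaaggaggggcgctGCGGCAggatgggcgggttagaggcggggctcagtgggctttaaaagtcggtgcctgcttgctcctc
Ndn, chr7:62348027-62348276, plus strand: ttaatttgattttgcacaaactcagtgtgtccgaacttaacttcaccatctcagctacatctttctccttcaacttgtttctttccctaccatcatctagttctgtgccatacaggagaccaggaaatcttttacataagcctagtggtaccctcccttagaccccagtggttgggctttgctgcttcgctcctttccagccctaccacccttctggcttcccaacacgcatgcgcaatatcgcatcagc

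The Plagl1 window held 1 hexamer, 90 bases before the start, and 19 CG dinucleotides. The Mest window shown held 2 hexamers and 14 CG dinucleotides. Neither strand of the Ndn window held the hexamer, and it had 5 CG dinucleotides, beside a median of 6 over all 32851 windows. Mest had 2 further windows in the table: 1 that starts 3 bases on and holds the same 2 hexamers, and 1 at an upstream start, chr6:30733256-30733505, with none. Of the 10 genes 8 had at least 1 window, and 4 of their 14 windows held the hexamer (1 of Plagl1, 1 of Zim1 and the 2 overlapping ones of Mest). Over all windows 8.68% held it. A match is a run of letters, and neither binding nor methylation was measured.

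Grb10 encodes an adaptor that dampens signalling from the insulin and insulin-like growth factor receptors. Its brightest probe, A_52_P115787 at chr11:11830965-11831024 (mm8, minus strand), stood at 10.40, 9.95 and 10.44 in CPE and at 10.71, 10.79 and 10.89 in the reference. The log2 ratio was −0.53 (SE 0.17, 95% confidence interval −0.93 to −0.14, adjusted p = 0.0397) and was not past the fold threshold; with median centring it was 0.081. A second probe, A_52_P40363, lies 39609 bases upstream and gave 7.64, 7.60 and 8.32 in CPE against 9.16, 9.21 and 9.07 in the reference. This probe was past the threshold, with ratios of −1.52, −1.61 and −0.76, a mean of −1.30 (SE 0.20, adjusted p = 0.00225) and a 2.46-fold lower level. Another probe, 2615 bases upstream of the first, was above background on 1 array in each channel and was not tested. The 2 tested probes of Grb10 thus had the same sign and different sizes, and only the upstream one was called.

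Among the relatives of Grb10, Grb14, another adaptor that binds the insulin receptor, was higher in CPE, with log2 ratios of 2.01, 2.01 and 0.65 (mean 1.56, SE 0.28, adjusted p = 0.00387). Grb7 had a mean of −0.62 (SE 0.19, adjusted p = 0.0324) and was not past the fold threshold. Cobl, the neighbour of Grb10 and an actin nucleator, had a log2 ratio of 0.26 (SE 0.17, adjusted p = 0.267).

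H19 is a long non-coding RNA that shares its enhancers and its control region with Igf2 and is abundant in the fetus. Its brightest probe, A_51_P142196 at chr7:142385254-142385313 (mm8, minus strand), stood at 7.37, 7.13 and 6.01 in CPE and at 7.57, 7.21 and 6.74 in the reference. It was above background in CPE on 1 array and in the reference on all 3. The log2 ratio was −0.34 (SE 0.18, 95% confidence interval −0.75 to 0.084, adjusted p = 0.18). The second probe, 249 bases upstream, gave 0.014 (SE 0.18, 95% confidence interval −0.41 to 0.43, adjusted p = 0.961). Both intervals leave out a 2-fold difference in the measured ratio in either direction, for signals that lay near background. The offset added in background correction shrinks ratios of such dim signals, so a 2-fold difference in RNA was not excluded.

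Igf2, the neighbour of H19 that encodes insulin-like growth factor 2, was far from background. It is listed here as paternal by textbook assignment, and the allele in use in CPE was not measured. Its brightest probe reached saturation in the CPE channel of each array, which makes the ratio a lower bound: Igf2 was at least 11.2-fold higher in CPE (adjusted p = 1.28e-05). A second Igf2 probe, which was not saturated, had log2 ratios of 4.24, 4.37 and 4.78 (mean 4.46, SE 0.17, adjusted p = 6.72e-06).

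Dlk1 encodes a membrane protein of the Notch ligand family that holds back differentiation. Probe A_51_P135618, at chr12:109908264-109908323 (mm8, plus strand), stood at 7.41, 7.85 and 7.61 in CPE and at 7.53, 7.57 and 7.51 in the reference. The values of the groups overlapped. The log2 ratio was 0.086 (SE 0.16, 95% confidence interval −0.29 to 0.46, adjusted p = 0.705), and the second probe, 239 bases upstream, gave 0.24 (SE 0.15, 95% confidence interval −0.11 to 0.60, adjusted p = 0.24). Both intervals leave out a 2-fold difference in the measured ratio in either direction. These signals were dim, and the same offset shrinks their ratios, so a 2-fold difference in RNA was not excluded. The second probe was above background in CPE on 2 arrays. The relative Dlk2 had a log2 ratio of 0.056 (SE 0.19, adjusted p = 0.843).

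In the cluster of Dlk1, the maternally expressed non-coding RNA Meg3 (named Gtl2 on the array) was measured by 4 probes that did not share a direction. Its brightest probe had a log2 ratio of −0.37 (SE 0.15, adjusted p = 0.0927). Another, 10120 bases upstream, was past the threshold at −1.97 (SE 0.35, adjusted p = 0.00398), with −2.62, −2.56 and −0.73 in the 3 mice, and the other two gave 0.44 and −0.39. Dio3, which inactivates thyroid hormone, had a log2 ratio of 0.15 (adjusted p = 0.47). Its probe was above background in CPE on 2 arrays and was brighter on array 3 in both channels. The levels were 7.40, 7.29 and 10.08 in CPE and 7.29, 7.24 and 9.78 in the reference. Rian, a non-coding RNA, was at −0.25 (adjusted p = 0.246) at its only tested probe, which was above background in CPE on 1 array. The other Rian probe, 8511 bases downstream and brighter, was above background on 2 arrays in each channel and had ratios of 0.95, 1.56 and 0.53, the opposite direction. It was not tested with all 3 mice, and with no filter on dim probes or without mouse 3 Rian was past the threshold. Mirg, another non-coding RNA of the cluster, had no tested probe, with a mean of −0.43.

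Peg3 encodes a zinc finger protein that affects growth and maternal behaviour, and of the 10 genes it varied most among the mice. Probe A_52_P235861, at chr7:6310149-6310208 (mm8, minus strand), stood at 11.33, 9.71 and 9.57 in CPE and at 9.99, 9.92 and 9.82 in the reference. Mouse 1 was above every reference value and mice 2 and 3 were below them. The ratios were 1.34, −0.21 and −0.26, with a mean of 0.29 (SE 0.31, 95% confidence interval −0.42 to 1.01, adjusted p = 0.493).

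A second probe of Peg3, A_51_P206037, 1666 bases upstream, showed the same order for mouse 1. Its CPE levels were 9.66, 8.13 and 8.11, its reference levels 8.66, 8.66 and 8.03, and its ratios 1.00, −0.53 and 0.084 (mean 0.18, SE 0.27, adjusted p = 0.632). Mouse 1 exceeded the mean of the other mice by 1.57 and 1.23 log2 units at the 2 probes. The SD of the 3 ratios was 0.91 and 0.77, larger than that of 98.3% and 96.6% of all tested probes. Without mouse 1 both means were below 0, at −0.23 and −0.23. The remaining Peg3 probe, 16170 bases upstream, was above background on 1 array in each channel and was not tested.

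In the same mouse the summed red blood cell markers stood at 14.9, against 14.4 in mice 2 and 3, while the stroma sum was 14.4 in mouse 1, 14.2 in mouse 2 and 14.3 in mouse 3. The part of these in the Peg3 values was not tested. Zim1, the maternally expressed zinc finger gene next to Peg3, did not show the same order: its probe, A_51_P490100 at chr7:6280569-6280628 (mm8, minus strand), had ratios of −0.48, −0.074 and 0.32. It was above background in CPE on 1 array and in the reference on 2, and it was the only gene of the 10 with no tested probe. Usp29, a ubiquitin protease gene that shares the start region of Peg3, had ratios of −1.01, −0.37 and −1.44 (mean −0.94, SE 0.22, adjusted p = 0.0119), not past the fold threshold, and past it at −1.23 without mouse 2. That probe was above background in CPE on 1 array. The other Usp29 probe was not tested and had ratios of the opposite sign, at 0.29, 0.16 and 0.33.

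**Figure D2:**
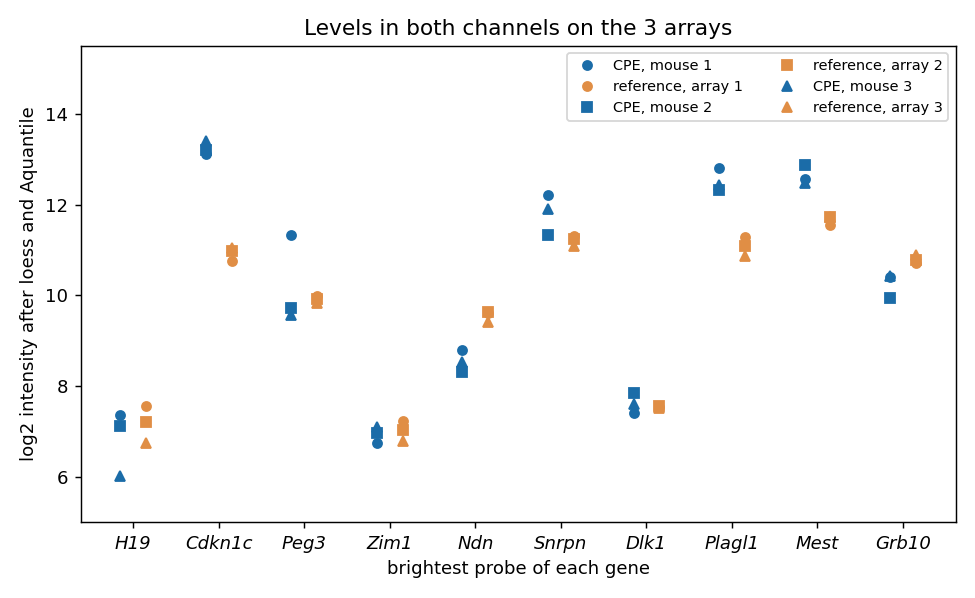
Log2 intensity (y axis) of the brightest probe of each of the 10 imprinted genes (x axis) in both channels, with CPE in blue and the RPE/choroid reference in orange; circles, squares and triangles are arrays 1, 2 and 3. Levels of different genes come from different probes and are not comparable with each other. For Cdkn1c, Plagl1 and Mest the CPE points lie above the reference points, for Ndn below them, and for Peg3 the circle of mouse 1, at 11.33, stands apart.

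Ndn and Snrpn lie in the cluster that is lost in Prader-Willi syndrome. Ndn encodes necdin, a protein of the MAGE family found mainly in neurons after division. Its probe, A_52_P451644 at chr7:62227911-62227970 (mm8, plus strand), stood at 8.80, 8.31 and 8.53 in CPE and at 9.61, 9.64 and 9.42 in the reference. Every CPE value lay below every reference value. The ratios were −0.81, −1.33 and −0.89, with a mean of −1.01 (SE 0.17, 95% confidence interval −1.40 to −0.62, limma's adjusted p = 0.003), just past the 2-fold limit. It fell short of that limit without background correction (−0.93), with array weights (−0.97), with median centring (−0.58) and without mouse 2 (−0.85), and stayed negative in each.

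Of the 6 neuron markers 3 were past the threshold as lower in CPE, with a median of −2.15. Their summed level was 10.97, 11.22 and 11.25 in CPE of mice 1 to 3 and 13.95 to 14.14 in the reference. The level of Ndn in CPE of the same mice was 8.80, 8.31 and 8.53. Stroma and macrophage markers were lower for 5 of 6 each and red blood cell markers for 3 of 3. None of the 6 neuron markers was below background, and the part of any of these lists in the Ndn ratio was not tested. Maged1, a relative of Ndn, had log2 ratios of 0.85, 1.03 and 0.92 (mean 0.94, SE 0.15, adjusted p = 0.00247), higher but not past the fold threshold, and Maged2 had a mean of 0.22 (adjusted p = 0.285).

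Snrpn encodes a protein of the spliceosome and, in its first exons, holds the control region of the Prader-Willi cluster. Probe A_52_P354390, at chr7:59866394-59866453 (mm8, minus strand), stood at 12.20, 11.32 and 11.91 in CPE and at 11.31, 11.25 and 11.10 in the reference. Mice 1 and 3 were clearly above the reference and mouse 2 was barely so. The ratios were 0.89, 0.076 and 0.81 (mean 0.59, SE 0.20, 95% confidence interval 0.13 to 1.06, adjusted p = 0.0483), and the difference was 1.51-fold, under the limit. The second probe, A_51_P168862, shares 43 of its 60 bases with the first and so is not a separate measurement; it gave 0.57 (SE 0.19, adjusted p = 0.0438). With median centring the 2 probes were past the threshold at 1.32 and 1.26.

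Mouse 2, the lowest at Snrpn, also had the smallest number of probes above background. The summed smooth muscle and pericyte markers stood at 12.5 in mouse 2 and at 13.8 in mice 1 and 3. Acta2, the brightest gene in that sum, was at 13.0, 10.4 and 13.2 in CPE, and Rgs5 at 9.87, 8.19 and 10.1. That Acta2 probe lies 7799 bases upstream of the most 3′ probe of the gene. The dip was not shared by the whole list. Another Acta2 probe, 864 bases upstream of the same 3′ probe, was at 11.5, 11.4 and 11.6, and Cnn1 at 7.56, 7.91 and 7.49. The part of any of these in the Snrpn values was not tested, nor was the part of probe position in the dip. Snrpb, which encodes the near-identical SmB proteins that most cells use, had ratios of −0.29, −1.17 and 0.17 (mean −0.43, SE 0.25, adjusted p = 0.212). The coding sequences of the pair are alike, and how far each probe sees the other transcript was not tested. Ube3a, the ubiquitin ligase of the neighbouring Angelman region, is listed as maternal, and its allele in CPE was not measured. It had a log2 ratio of 0.027 (SE 0.22, adjusted p = 0.936), with mouse 2 at −0.62 and mice 1 and 3 at 0.39 and 0.31. Its other probes gave −0.26 and 0.30, not past the threshold. Magel2, Mkrn3 and Peg12, paternally expressed genes of the cluster, had no tested probe, with means of 0.25, −0.30 and 0.27.

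By brightness rank in CPE, 4 of the 10 genes were in the high class, above the 90th percentile of all probes: Cdkn1c at 98.9, Mest at 98.2, Plagl1 at 97.9 and Snrpn at 96.4. Over all genes on the array, each by its highest ranked probe, 12.7% were in that class. Grb10 at 89.5, Peg3 at 89.1, Ndn at 73.2 and Dlk1 at 54.4 were in the moderate class (50th to 90th percentile). H19 at 30.8 and Zim1 at 25.7 were in the low class (10th to 50th), and no gene was below it. Grb10 and Peg3 lay just under the border of the high class: Peg3 ranked at 94.6 in mouse 1 and at 84.7 and 83.7 in mice 2 and 3, and Grb10 at 89.9, 87.1 and 90.6. Leaving out mouse 2 put both in the high class, and leaving out mouse 3 put Peg3 there. A rank depends on a probe's sequence as well as on the RNA, so neighbours in this order are not ranked in transcript level.

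**Figure D3:**
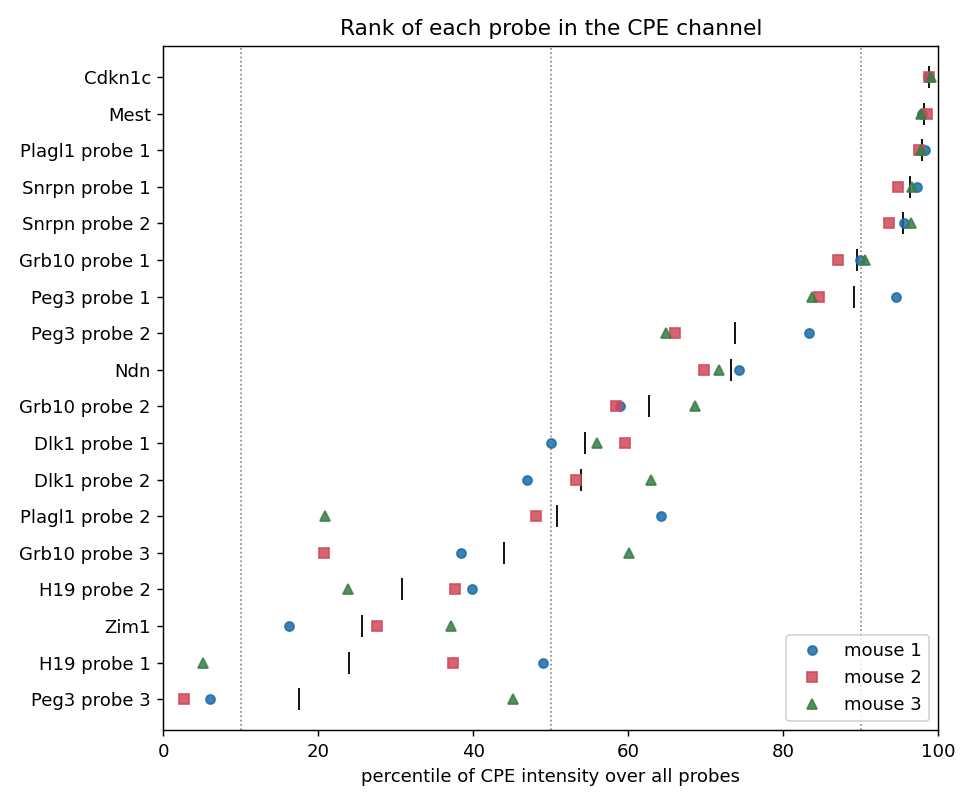
Percentile of the CPE intensity among all probes (x axis) for each of the 18 probes (y axis, ordered by mean). Points are the 3 mice, black ticks the rank of the mean, and dotted lines the class borders at the 10th, 50th and 90th percentile. Cdkn1c, Mest, the brightest Plagl1 probe and both Snrpn probes lie above the 90th percentile in all mice, and the brightest H19 probe runs from 5.1 to 49.0.

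The 14 tested probes varied among the mice about as much as others, with a median SD of the log2 ratio of 0.31 against 0.26 over all tested probes. Cdkn1c and the upstream Dlk1 probe were at the low end, with SDs of 0.079 and 0.10, and the 2 Peg3 probes were at the high end. Among genes with several probes, the highest and lowest mean ratio differed little for Snrpn (0.57 and 0.59) and most for Grb10 (−1.30 and 0.090, the latter from an untested probe).

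For comparison, 44 other imprinted genes were listed, and 40 were found on the array by name. Of the 27 with a tested probe, 4 were higher in CPE, 2 were lower and 21 were not past the threshold, with a median log2 ratio of 0.13. Over all genes tested, 8.03% were higher and 11.1% lower. The higher ones were Igf2, Nnat, Igf2r and Ppp1r9a. Nnat, which encodes a small membrane protein of the endoplasmic reticulum, had ratios of 3.62, 2.75 and 2.34 (mean 2.90, SE 0.24, adjusted p = 0.000124), and Igf2r, the receptor that clears insulin-like growth factor 2, had 1.57, 1.65 and 1.42 (mean 1.55, SE 0.15, adjusted p = 0.000258). Ppp1r9a, an actin-binding regulator of protein phosphatase, was at 1.09 (SE 0.18, adjusted p = 0.00283), and not past the threshold without mouse 1 (0.90); its other tested probes gave 0.28 and −0.13.

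The lower ones were Nap1l5, a nucleosome assembly protein gene, with ratios of −2.93, −2.69 and −2.23 (mean −2.62, SE 0.18, adjusted p = 5.27e-05), and Rasgrf1, an activator of Ras in neurons, with −1.69, −1.15 and −0.64 (mean −1.16, SE 0.22, adjusted p = 0.00471). Rasgrf1 was not past the threshold without mouse 1 (−0.89), and its other tested probes gave −0.50 and −0.23. By textbook allele, which can differ between tissues and was not measured in CPE, the genes listed as paternal had 2 higher and 2 lower of 12 tested. Those listed as maternal had 2 higher and none lower of 14. Among the 10 genes, 1 higher and 1 lower of the 6 tested paternally expressed genes stood beside 1 higher of the 2 tested maternally expressed ones. These groups were not tested against each other.

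Around Cdkn1c, other genes of the Kcnq1 cluster were mixed. Cd81, a tetraspanin, had a log2 ratio of 0.98 (SE 0.16, adjusted p = 0.00285) with saturation in CPE on 1 array, and Tssc4 had 0.90 (SE 0.16, adjusted p = 0.00441), both just short of 2-fold. Kcnq1, a potassium channel subunit, was at 0.61 (SE 0.20, adjusted p = 0.0425), Slc22a18, a transporter, at 0.23 (adjusted p = 0.269) and Osbpl5, a lipid transfer protein, at −0.34 (adjusted p = 0.148). A second probe with the name Kcnq1 lies on the opposite strand, so it is not a second reading of the same transcript. It gave −0.14 (adjusted p = 0.592) and was above background in CPE on 1 array. None of these 5 was past the threshold, and Cdkn1c was. Phlda2 and Ascl2 of the same cluster had no tested probe, with means of −0.39 and −0.14 at the probes of Phlda2 and 0.22 at that of Ascl2.

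**Figure D4:**
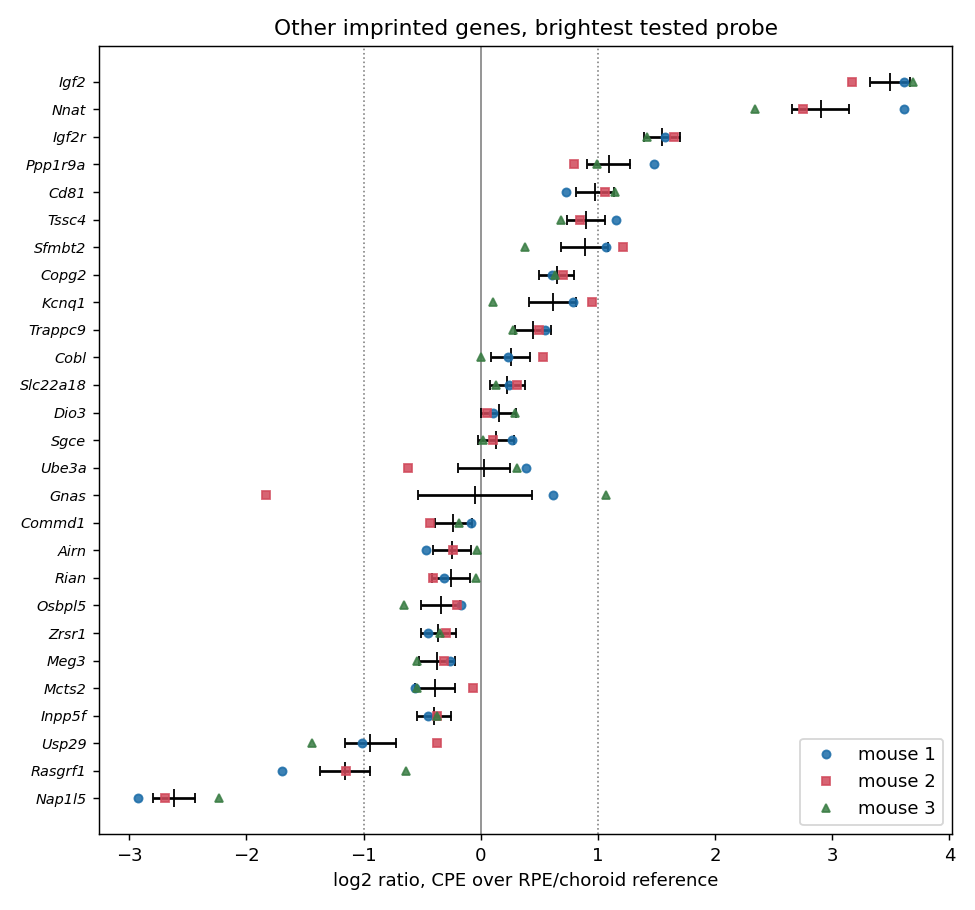
Log2 ratio of CPE over the RPE/choroid reference (x axis) for the brightest tested probe of 27 other imprinted genes (y axis). Points are the 3 mice, black bars the mean ± SE from limma, and dotted lines mark a 2-fold difference in either direction. Igf2, whose ratio is a lower bound because its probe reached saturation, lies at the top, Nap1l5 at −2.62 at the bottom, and Gnas runs from −1.84 in mouse 2 to 1.07 in mouse 3.

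In the high class of CPE brightness were 15 of these 40 genes: Igf2, Cd81, Gnas, Igf2r, Sgce, Ube3a, Nnat, Zrsr1, Commd1, Ppp1r9a, Copg2, Trappc9, Tssc4, Cobl and Osbpl5. The share over all genes on the array was 12.7%, and the 2 were not tested against each other. Gnas, which encodes the stimulatory G protein subunit through which hormone receptors raise cyclic AMP, was the most variable of them, with ratios of 0.62, −1.84 and 1.07 (mean −0.050, SE 0.49, adjusted p = 0.948). Sgce, a sarcoglycan, was at 0.13, Trappc9 at 0.44, and Zrsr1 and Commd1, which share a locus, at −0.36 and −0.23, none past the threshold.

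Of 13 genes that set or keep imprints, 11 had a tested probe. None was higher in CPE and 1 was lower: Arid4a, a chromatin protein gene, with a log2 ratio of −1.09 (SE 0.22, adjusted p = 0.00614), which did not pass without mouse 2 (−0.80). Another Arid4a probe, at the 3′ end, gave 0.0040 (adjusted p = 0.988). The median over the 11 was −0.19. Over all genes tested, 8.03% were higher and 11.1% lower. Dnmt3a, a DNA methyltransferase that sets imprints in the germ line, and Zfp445, a zinc finger protein that keeps imprints beside ZFP57, were not past the threshold by their brightest probes, at −0.21 and −0.88, and each had a dimmer probe that was past it as lower, at −1.29 (adjusted p = 0.00311) and −1.42 (adjusted p = 0.00082). Ctcf, the insulator protein that binds the unmethylated control region of H19, and Smchd1, a chromatin protein that silences some imprinted genes, were in the high class, with log2 ratios of −0.29 (adjusted p = 0.191) and −0.49 (adjusted p = 0.0367).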

How the data were processed

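The authors scanned 2-colour Agilent arrays and deposited spot and background intensities and a log10 ratio per array (Agilent Feature Extraction 9.5.3.1, per the submitters' processing notes), with probe positions on mm8, and a table of log2 CPE levels after Aquantile in R 2.14.0. The latter served as an alternative for ranks only. With limma 3.58.1 in R 4.3.3, mean signals were background corrected (normexp, offset 50), normalised by loess within arrays and fitted with an intercept. The 84 outlier spots were left out, and p-values were adjusted (Benjamini-Hochberg) over 25843 probes. Levels were set between arrays by Aquantile. Ranks used CPE signals without background correction. The fit was tested on simulated data.

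The 10 genes and all lists were chosen with earlier results of these data known. Named were all 10 genes, and other imprinted and imprint-keeping genes that were past the threshold, in the high class or in the same cluster, and every tested relative. Per-sample columns not used numbered 0. The number of arrays, 3, limits the precision.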

Additional observations from a re-analysis of the deposited data

How the results depend on the processing

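The count of 3 of the 10 genes past the threshold ranged from 2 to 4 when 1 mouse was left out and fell to 1 (Cdkn1c) when tested against a 2-fold change. It was 2 without background correction, 4 with median centring, the scanner's ratio or the probe of largest ratio, and 3 otherwise. Of the other imprinted genes 6 passed, with 10 by the scanner's ratio, 11 after median centring, 3 against a 2-fold change and 5 to 9 with 1 mouse left out. The median SD of 0.31 was 0.60 under median centring (0.51 over all tested probes) and 0.19 to 0.30 with 1 mouse left out. The high class held 4 to 6 of the 10 genes with 1 mouse left out and 4 in every other alternative. The median log2 ratio of all probes was −0.040, and 0.091 under median centring. The cause of these shifts was not tested.

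Of 533 single-probe ratios under alternatives, 464 kept direction and side of the threshold and 25 changed sign, none of these past the threshold. Under median centring the ratio was −0.17 for the second H19 probe, −0.021 for Dlk1, 0.081 for Grb10, 0.30 for Osbpl5, −0.044 for Dio3, 0.060 for Meg3, 0.76 for Gnas, 0.33 for Zrsr1, 0.44 for Commd1, 0.40 for Ctcf, 0.16 for Smchd1 and 0.20 for Snrpb. With the scanner's ratio H19 (second probe) was at −0.46 and Dio3 at −0.16, and with array weights Gnas was at 0.0047. With 1 mouse left out in turn, ratios that changed sign ranged from −0.13 to 0.21 for H19 (second probe), from −0.23 to 0.54 and from −0.23 to 0.57 for Peg3, from −0.0098 to 0.19 for Dlk1, from −0.15 to 0.35 for Ube3a, from −0.61 to 0.84 for Gnas and from −0.11 to 0.28 for Dlk2. No replicate block was fitted, since the mice form 1 group; CPE and reference were paired on each array by the ratio itself.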
